A study of Mus musculus with 9 samples.

Results

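The MAP kinase phosphatases are the dual-specificity phosphatases (DUSPs) that remove phosphate from both the threonine and the tyrosine of an activated MAP kinase. The 10 genes of the family, Dusp1, Dusp2, Dusp4, Dusp5, Dusp6, Dusp7, Dusp8, Dusp9, Dusp10 and Dusp16, were taken by symbol from the 22851 genes counted in mouse heart, and all 10 had a row. The family was chosen by the measured levels of Dusp4, whose rise in the diabetic hearts was among the largest of all genes, so the values of Dusp4 are given as a description without a test. The other 9 members were taken because they belong to the family, and 8 of them passed the filter on low counts and were tested.

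RNA was sequenced in 9 libraries of heart myocardium from male C57BL/6 mice (C57BL/6J in the study's methods), aged 6 to 8 weeks at the start. All mice were fasted overnight and anesthetized with pentobarbital before tissue was taken. CK is the control group, which received citrate buffer. DCM is the diabetic cardiomyopathy model, made by a single injection of streptozotocin, a toxin of the insulin-producing beta cells, and kept for 12 weeks. SPM mice had the same streptozotocin and also the polyamine spermine (1 mg/kg), daily over the 2 weeks leading up to streptozotocin and on alternate days over the 12 weeks that followed. No group had spermine alone. Whether a library holds 1 heart or a pool of hearts is not settled by the methods, and the p-values measure the spread between the 3 libraries of a group, which may be partly technical.

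MAP kinases are the last step of a relay in which a MAP3 kinase phosphorylates a MAP2 kinase, which phosphorylates ERK, JNK or p38. The DUSPs reverse that last step, and many of them are themselves transcribed when the relay is active, so the family forms a negative feedback. In the heart ERK, JNK and p38 respond to stretch, growth factors, oxidative stress and neurohormones. Dusp1, Dusp2, Dusp4 and Dusp5 encode inducible nuclear enzymes, Dusp6, Dusp7 and Dusp9 encode cytoplasmic enzymes that prefer ERK, and Dusp8, Dusp10 and Dusp16 encode enzymes that prefer JNK and p38.

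Total counts lay between 29901300 and 39718680 per library. Mitochondrial genes took 13.7% to 16.2% of the CK totals, 15.5% to 18.9% of the DCM totals and 21.0% to 21.1% of the SPM totals. SPM replicate 2 stood apart, because 66.3% of 14909 genes had a level there that was in the middle of the SPM group, against 15.6% to 38.7% when the same was counted for each of the other 8 libraries. Of 2656 genes without a count in SPM replicates 1 and 3, 30 had a count in replicate 2 (1.13%, against 15.6% to 35.0% in the other 8 libraries). It lay between the others for 7 of the 10 members, and values without it are given beside the calls on SPM. Whether it is independent of SPM replicates 1 and 3 was not tested. The SDs with n = 3 and the p-values for SPM may therefore rest on fewer than 3 independent libraries. Fold changes followed the GC content of the gene with Spearman's rho of -0.502 in SPM compared to DCM, -0.366 in SPM compared to CK and 0.0602 in DCM compared to CK, across 14484, 14564 and 14392 genes, which are not independent replicates. The extraction protocol in the labels names retinas, whereas 6 cardiomyocyte markers summed to 32543 to 44514 normalized CPM and 6 retina markers to 0.422 to 1.67 over the 9 libraries.

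The stretches of DNA before the start of transcription are shown for the 3 members that hold a motif known to answer to kinase signaling, so that they can be set beside the values of those members. In windows of 250 bases before the RefSeq start (GRCm38.p6), present for 8 of the 10 members and missing for Dusp4 and Dusp9, 3 motifs were searched on both strands. These were the cAMP response element TGACGTCA, the AP-1 element TGACTCA and the CArG box, to which CREB, the FOS and JUN proteins and serum response factor bind, respectively. The first 2 share the letters TGAC but cannot match at the same place, and capitals mark the matches. The windows of Dusp1 and Dusp8 lie within the span of the gene in GENCODE M21, which reaches further upstream. Bases that GENCODE M21 places in an exon of the gene were left off the end nearest the start, 47 for Dusp1, 36 for Dusp5 and 0 for Dusp8.
Dusp1 (chr17:26508520-26508722, minus strand): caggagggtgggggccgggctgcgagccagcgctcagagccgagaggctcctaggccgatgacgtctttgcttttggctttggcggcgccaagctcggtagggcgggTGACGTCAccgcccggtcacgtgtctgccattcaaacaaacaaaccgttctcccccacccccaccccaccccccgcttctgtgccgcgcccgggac
Dusp5 (chr19:53528895-53529108, plus strand): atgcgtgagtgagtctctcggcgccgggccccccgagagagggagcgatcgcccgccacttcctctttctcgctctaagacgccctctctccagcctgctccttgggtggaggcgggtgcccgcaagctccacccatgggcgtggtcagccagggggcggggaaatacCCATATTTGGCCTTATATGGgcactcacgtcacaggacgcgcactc
Dusp8 (chr7:142095285-142095534, minus strand): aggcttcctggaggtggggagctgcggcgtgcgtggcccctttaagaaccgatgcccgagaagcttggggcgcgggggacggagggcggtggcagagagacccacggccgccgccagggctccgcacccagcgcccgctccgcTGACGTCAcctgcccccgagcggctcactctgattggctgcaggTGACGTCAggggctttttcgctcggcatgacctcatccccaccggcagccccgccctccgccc
Dusp1 had 1 cAMP response element, with its first base 143 bases before the RefSeq start. Dusp8 had 2, at 107 and 63 bases before it. Dusp5 had a pair of CArG boxes next to each other, at 82 and 72 bases. The cAMP response element was found in 2 of the 8 windows and in 1.55% of all 32851 windows, the CArG box in 1 of 8 and in 1.47%, and the AP-1 element in 0 of 8 and in 4.46%. A match is a description of the letters, and no match says nothing of the factor.

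Dusp4 (ENSMUSG00000031530, chromosome 8 from 34807297 to 34819894, plus strand, GRCm38) encodes an inducible nuclear phosphatase of ERK, JNK and p38. Its levels were 6.86, 4.19 and 7.43 normalized CPM in CK replicates 1, 2 and 3. They were 40.8, 44.8 and 44.4 in DCM and 62.8, 49.9 and 37.2 in SPM. All 6 libraries of streptozotocin-treated mice lay above all 3 CK libraries, and the SPM libraries spread on both sides of the DCM libraries. The means were 6.16 ± 1.73 in CK, 43.3 ± 2.22 in DCM and 50.0 ± 12.8 in SPM (SD, n = 3), where normalized CPM are counts relative to a library total scaled by TMM. In bulk tissue fewer cells of a type and less RNA per cell cannot be told apart, here and for every value that follows. The log2 fold change was 2.82 in DCM compared to CK (standard error 0.16, 7.07-fold), the fifth largest rise of 14402 genes. In SPM compared to CK, which uses the same CK libraries, it was 3.02 (standard error 0.24, 8.13-fold, the 54th largest of 14574). Against DCM it was 0.21 in SPM (standard error 0.15), with 0.0038 when SPM replicate 1 was left out and 0.37 when SPM replicate 3 was. Without SPM replicate 2 these last values were 3.03 and 0.21, and over all libraries left out in turn the log2 fold change in DCM compared to CK lay between 2.60 and 2.98.

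**Figure D1:**
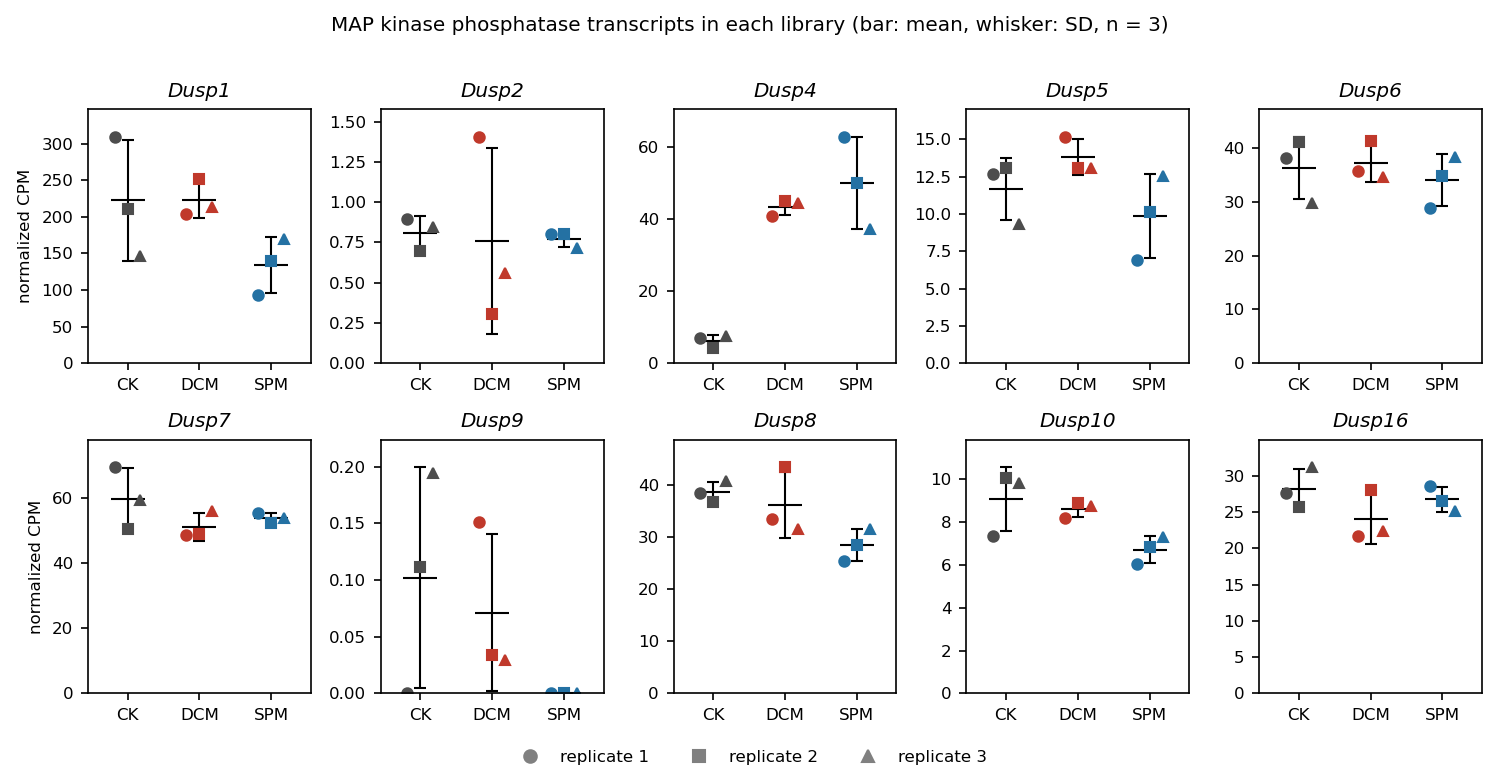
Levels of the 10 MAP kinase phosphatase transcripts in normalized CPM (vertical axes, linear and starting at 0, a different range in each panel) in the 3 libraries of CK, DCM and SPM, with symbols for replicates 1 to 3, a bar for the mean and a whisker for the SD (n = 3). Dusp4 has no overlap between CK (4.19 to 7.43) and DCM (40.8 to 44.8), whereas CK and DCM overlap in every other panel.

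The other inducible nuclear members did not follow Dusp4 in DCM. Dusp1 (ENSMUSG00000024190, chromosome 17 from 26505590 to 26562128, minus strand), which dephosphorylates p38 and JNK as well as ERK and is an immediate early gene, had 309.6, 211 and 146 normalized CPM in CK. It had 204, 251 and 213 in DCM and 93.6, 139 and 169.8 in SPM. CK replicates spread over a 2.12-fold range that held all 3 DCM libraries, and all SPM libraries lay below all DCM libraries. Dusp5 (ENSMUSG00000034765, chromosome 19 from 53529109 to 53542431, plus strand), a nuclear phosphatase specific for ERK, had 12.7, 13.1 and 9.31 normalized CPM in CK, 15.2, 13.1 and 13.1 in DCM and 6.90, 10.1 and 12.5 in SPM. DCM and CK overlapped by a narrow margin, and SPM lay below DCM. Dusp2 (ENSMUSG00000027368, chromosome 2 from 127336159 to 127338376), best known from activated lymphocytes, was rare, with 9 to 28 counts in 8 of the 9 libraries and 56 in DCM replicate 1. Its normalized CPM ranged from 0.698 to 0.893 across the CK libraries, from 0.305 to 1.41 across DCM and from 0.716 to 0.804 across SPM, so the CK and SPM libraries lay inside the range of DCM. Markers of T and NK cells summed to 2.03 to 9.85 and those of B cells to 2.10 to 16.3 normalized CPM over the 9 libraries, and their part in the level of Dusp2 was not tested.

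Among the ERK-preferring cytoplasmic members, Dusp6 (ENSMUSG00000019960, chromosome 10 from 99263231 to 99267489), a feedback inhibitor transcribed downstream of ERK, had 38.0, 41.1 and 29.8 normalized CPM in CK. It had 35.7, 41.2 and 34.5 in DCM and 28.8, 34.7 and 38.4 in SPM, so the groups overlapped throughout. Dusp7 (ENSMUSG00000053716, chromosome 9 from 106368632 to 106375724) lay between 48.5 and 69.5 normalized CPM in all 9 libraries, again with overlap of all groups. Dusp9 (ENSMUSG00000031383, chromosome X from 73639419 to 73643514), known from placenta and metabolic tissues, was at the limit of detection. It had 0, 4 and 6 counts in CK and 6, 1 and 1 in DCM. It had 0 counts of 96753799 in the 3 SPM libraries, which allows up to 0.0310 CPM for the group at a floor of 3 counts, a limit that covers counting error only, and Dusp9 was not tested.

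The members that prefer JNK and p38 were at intermediate levels. Dusp8 (ENSMUSG00000037887, chromosome 7 from 142079490 to 142095843, minus strand) had 38.5, 36.7 and 40.8 normalized CPM in CK. It had 33.5, 43.5 and 31.7 in DCM and 25.5, 28.5 and 31.6 in SPM. SPM lay below both other groups, though only just below DCM replicate 3. Dusp10 (ENSMUSG00000039384, chromosome 1 from 184013302 to 184075636) had 7.37, 10.1 and 9.83 normalized CPM in CK, 8.19, 8.91 and 8.76 in DCM and 6.04, 6.82 and 7.29 in SPM. Here too each SPM library lay below each library of the other groups. Dusp16 (ENSMUSG00000030203, chromosome 6 from 134715468 to 134792625) lay between 21.6 and 31.2 normalized CPM, and its groups overlapped in all 3 comparisons.

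Per length, the place of Dusp4 within the family changed between the groups. FPKM, which divides counts by gene length and library total, was used for comparisons between genes. In CK the order was Dusp1 (100.6 ± 37.9), Dusp7 (19.4 ± 3.10), Dusp6 (13.6 ± 2.32), Dusp8 (8.40 ± 0.341), Dusp16 (5.76 ± 0.508), Dusp5 (4.95 ± 0.930), Dusp10 (3.40 ± 0.555), Dusp4 (2.34 ± 0.640), Dusp2 (0.524 ± 0.0633) and Dusp9 (0.0390 ± 0.0370), as mean FPKM ± SD with n = 3. Libraries of neighbors in that order overlapped for Dusp16 with Dusp5 and for Dusp10 with Dusp4, and did not for the other neighbors. In DCM, Dusp4 at 15.5 ± 0.521 FPKM was the third and overlapped Dusp7 (15.6 ± 1.24), above Dusp6 (13.0 ± 1.11) without overlap. In SPM it was the second by mean, at 17.8 ± 4.49 FPKM, and overlapped Dusp7 (16.3 ± 0.421). Dusp1 was the most abundant member in all 9 libraries.

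Dusp4 accounted for 1.05% to 2.31% of the summed FPKM of the 10 members in the CK libraries, 9.18% to 10.3% in the DCM libraries and 9.91% to 21.4% in the SPM libraries. The sum itself was 121.0 to 202.7 FPKM for CK, 152.6 to 172.2 for DCM and 104.1 to 133.8 for SPM, and Dusp1 held between 37.7% and 69.2% of it. The 8 members other than Dusp1 and Dusp4 summed to 53.2 to 59.8 FPKM for CK, 48.4 to 51.4 for DCM and 42.6 to 48.9 for SPM, so DCM and SPM overlapped in this sum and both lay below CK. FPKM is not scaled by TMM, so the mitochondrial share of the totals, which moved with the groups, enters it, and its part in these sums was not tested.

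**Figure D2:**
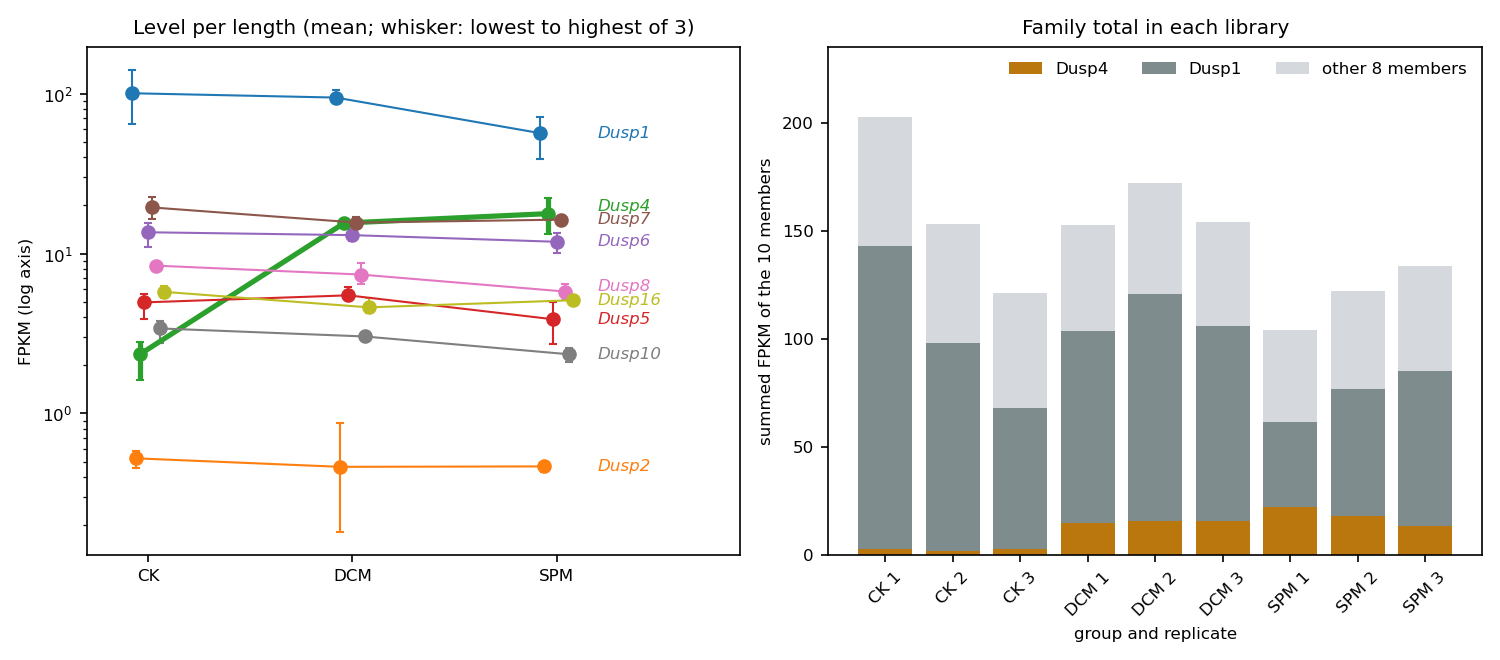
Left, FPKM (log axis) of 9 members by group as means, with whiskers from the lowest to the highest of 3 libraries, Dusp9 left out because of its zeros. Right, FPKM of Dusp4, Dusp1 and the other 8 members stacked in each of the 9 libraries (linear axis from 0). Dusp4 goes from the eighth place in CK (2.34) to the third in DCM (15.5), and its part of the stack is 1.05% to 2.31% in CK and 9.18% to 10.3% in DCM.

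The question of DCM compared to CK was how the family differs between diabetic and control hearts. Of the 8 members tested beside Dusp4, 0 were called by edgeR's quasi-likelihood test, where called means past both limits (0.05 for the p adjusted by Benjamini-Hochberg over all genes, 1.5 for the fold change), and 4.34% of all 14402 genes tested were called (2.03% higher, 2.31% lower). The limit on the adjusted p alone was passed by 0 of the 8 and by 10.4% of all genes. By DESeq2 the number was 0 as well, and 0 of the 8 had an unadjusted p below 0.05. Their log2 fold changes lay between -0.23 and 0.24, with a median of -0.07 beside -0.0025 for all genes, and their adjusted p-values between 0.231 and 0.993. Dusp5 had the highest at 0.24 (standard error 0.14, adjusted p = 0.332), Dusp16 and Dusp7 the lowest at -0.23 (standard error 0.11, adjusted p = 0.232) and -0.22 (standard error 0.11, adjusted p = 0.231). Dusp1 stood at 0.0046 (standard error 0.20), and the sign of Dusp1 turned when CK replicate 2 or 3 or DCM replicate 2 was left out (-0.03, -0.22 and -0.09). The libraries of the 2 groups overlapped for all 8, whereas they did not overlap for 29.3% of all genes. A p above the limit does not show that the levels are equal, and Dusp2 had the widest standard error, 0.52. Fibroblast markers summed to 1970 to 2063 normalized CPM in CK against 1333 to 1423 in DCM, where 3 of 6 were called lower (Col1a1, Col1a2, Col3a1). Atrial myocyte markers summed to 1108 to 1525 in CK against 600 to 1120 in DCM, with 6 of 6 lower and Myl4 and Sln called. Among markers of other cell types, Adgre1, Lck and Alb were called lower and S100a8 and S100a9 higher. The part of these cell types in the members' values was not tested.

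**Figure D3:**
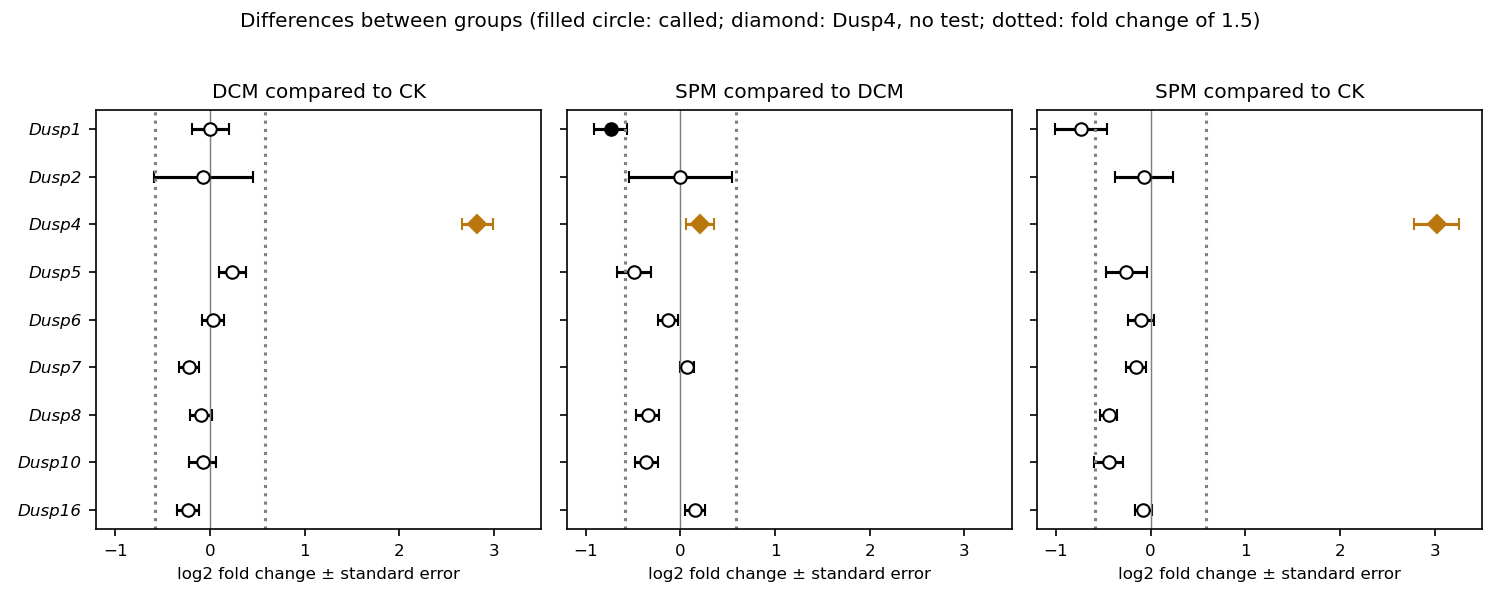
Log2 fold changes with standard errors (horizontal axis) of the 9 members that passed the low-count filter in DCM compared to CK, SPM compared to DCM and SPM compared to CK. The diamond is Dusp4, given without a test, at 2.82, 0.21 and 3.02, and the filled circle is Dusp1 in SPM compared to DCM (-0.73), while the other members stay inside the dotted fold change of 1.5 except Dusp1 in SPM compared to CK.

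In SPM compared to DCM, the comparison for spermine on the diabetic background, Dusp1 was downregulated with a log2 fold change of -0.73 (standard error 0.17, 1.66-fold lower, adjusted p = 0.0235 by edgeR's quasi-likelihood test). It was the 1 member called of the 8 tested beside Dusp4, where 3.59% of 14493 genes were called (2.7% higher, 0.89% lower), and DESeq2 called it too. The call did not hold without SPM replicate 2 (-0.76, adjusted p = 0.0676), nor without DCM replicates 1 (-0.80, 0.0632), 2 (-0.64, 0.115) or 3 (-0.77, 0.0593), where the adjusted p exceeded 0.05. Without SPM replicate 1 the adjusted p was 0.0132 but the log2 fold change of -0.53 stayed under the limit of fold, so the call was kept in the fit without SPM replicate 3 alone (-0.94, adjusted p = 0.00167). The whole table thinned in the same way, to 56 calls without SPM replicate 2 and 73 without DCM replicate 2 against 521 with all libraries. After the GC correction Dusp1 had -0.64 (adjusted p = 0.0670).

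Dusp5, Dusp8 and Dusp10 were lower in SPM than in DCM in every library without passing the adjusted limit in the main edgeR fit. Their log2 fold changes were -0.49 (standard error 0.18, adjusted p = 0.0852), -0.34 (standard error 0.12, adjusted p = 0.0792) and -0.36 (standard error 0.12, adjusted p = 0.0652). Without SPM replicate 2 these were -0.51 (adjusted p = 0.181), -0.34 (0.195) and -0.37 (0.216). Other settings that kept all libraries, by edgeR or DESeq2, included the GC correction. Over them Dusp5 lay between -0.52 and -0.35 (adjusted p from 0.0477 to 0.263). Dusp8 lay between -0.35 and -0.17 (0.0431 to 0.393) and Dusp10 between -0.41 and -0.35 (0.0639 to 0.0931). Dusp1, Dusp5, Dusp8 and Dusp10 make 4 of 8 members whose SPM and DCM libraries did not overlap, beside 39.2% of all genes. Dusp6 (-0.13), Dusp7 (0.07), Dusp16 (0.16) and Dusp2 (0.0013) had adjusted p-values from 0.316 to 0.999, and from 0.487 to 0.992 without SPM replicate 2. The median of the 8 was -0.24 beside 0.0057 for all genes. Between these groups 4 of 6 macrophage, 5 of 5 neutrophil, 4 of 4 tested liver and 2 of 6 atrial myocyte markers (Nppa, Kcnj3) were called higher in SPM. Summed over their lists these stood at 269 to 323 in DCM and 324 to 539.7 normalized CPM in SPM for macrophages and at 11.7 to 27.6 and 29.6 to 58.1 for neutrophils. Atrial myocyte markers, 6 of 6 higher in SPM, summed to 600 to 1120 normalized CPM in DCM and 1105 to 1770 in SPM. Alb, the liver's albumin gene, had 248, 113 and 0.293 normalized CPM in SPM replicates 1, 2 and 3 against 0.264 to 0.352 in DCM, so Alb did not rise in SPM replicate 3. Apoh had 0.401 FPKM in that library against 0.0275 to 0.106 in DCM, while Apoa2, Ttr and Fgb did not exceed their DCM range there. Fibroblast markers summed to 1333 to 1423 normalized CPM in DCM and 1588 to 1649 in SPM, without overlap. Of 6 tested, 4 were higher and 2 lower in SPM, with 0 called. Smooth muscle markers were lower in SPM for 4 of 4, with 0 called. The part of these cell types in the values of the members was not tested.

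SPM and CK differ in both streptozotocin and spermine. Compared to CK, 0 of the 8 members beside Dusp4 were called in SPM, by edgeR or by DESeq2, while 9.21% of 14574 genes were called (5.08% higher, 4.12% lower). All 8 had a negative log2 fold change, from -0.73 to -0.07, with a median of -0.21 beside 0.0022 for all genes, and 3 had an unadjusted p below 0.05. Dusp8 passed the adjusted p, as 27.4% of all genes did, without reaching the fold-change limit (-0.44, standard error 0.09, adjusted p = 0.00811). Leaving out SPM replicate 2 gave a p of 0.0452, and the GC correction gave -0.27 with a p of 0.0547. Dusp10 had -0.44 (standard error 0.15, adjusted p = 0.0578) and Dusp1 -0.73 (standard error 0.27, adjusted p = 0.0777). Dusp1 was called without CK replicate 3 (-0.97, adjusted p = 0.0352) and without SPM replicate 3 (-0.94, adjusted p = 0.0363). When SPM replicate 2 was left out, the adjusted p was 0.154 for Dusp1 and 0.157 for Dusp10, and all 8 log2 fold changes stayed negative, from -0.76 to -0.07. After the GC correction Dusp2 (0.11) and Dusp7 (0.0040) were positive, and Dusp6 reached 0.0044 in a fit with another library left out. The libraries of Dusp8 and Dusp10 did not overlap between SPM and CK, beside 46.3% of all genes. Between CK and SPM the summed markers did not overlap for cardiomyocytes (39795 to 44514 against 32543 to 37764 normalized CPM), endothelial cells (1800.15 to 2064 against 1567 to 1712.5), fibroblasts (1970 to 2063 against 1588 to 1649) and neutrophils (5.39 to 10.9 against 29.6 to 58.1). Neutrophil markers were called higher in SPM for 5 of 5, while the other lists were mixed. Of 6 tested cardiomyocyte markers 4 were lower and 2 higher, with 0 called. Of 7 endothelial markers 5 were lower and 2 higher, with Tie1 called lower. Of 6 fibroblast markers 4 were lower and 2 higher, with Col1a1, Col1a2 and Col3a1 called lower. Without SPM replicate 2 the neutrophil, Tie1 and collagen calls were kept (adjusted p from 0.00461 to 0.0222 by edgeR). The part of these cell types in the members' values was not tested. The 3 comparisons share libraries in pairs, so these values are not independent of those above.

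The genes around the phosphatases were read from lists of the pathway, chosen with earlier results of these data known. Of 119 genes in 11 lists, which include the immediate early and the glucocorticoid-responsive genes, 115 had a row. Values given for them without a unit are log2 fold changes. In DCM compared to CK, 10 of 109 tested genes were called higher and 0 lower, beside 2.03% and 2.31% of all 14402 genes. Of the 10, 5 were glucocorticoid-responsive genes and 1 was an immediate early gene. DESeq2 also made 9 of the 10 calls. The atypical DUSPs, small relatives without the MAP kinase docking domain, had 1 call among 12 tested (median -0.0058). This was Dusp26, from 1.04 ± 0.393 to 3.80 ± 0.679 normalized CPM (SD, n = 3; log2 fold change 1.88, adjusted p = 0.00218). Dusp26 was also called in SPM compared to CK (1.60, adjusted p = 0.0112, or 0.0470 without SPM replicate 2). Dusp3, the most abundant of them at 28.2 FPKM over the 9 libraries, had -0.13 (adjusted p = 0.269). The other MAP kinase phosphatases of the PTP and PPM families had 0 calls among 5 tested, with Ppm1b as the most abundant at 39.0 FPKM.

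Among the substrates, the 13 MAP kinases tested had 1 call in DCM. Mapk4, an atypical kinase that signals to MK5, had 6.73, 5.78 and 4.54 normalized CPM in CK, 15.5, 16.1 and 14.4 in DCM and 10.5, 9.20 and 9.96 in SPM. The 3 groups did not overlap, and the log2 fold changes were 1.43 in DCM compared to CK (adjusted p = 0.000108), -0.63 in SPM compared to DCM (adjusted p = 0.00968, or 0.0566 without SPM replicate 2, and -0.55 and under the fold-change limit after the GC correction) and 0.79 in SPM compared to CK (adjusted p = 0.00712, or 0.84 and 0.0268 without SPM replicate 2). Mapk3, Mapk8 and Mapk14, classical kinases that Dusp4 acts on, were not called in any comparison. Mapk3 (ERK1), the most abundant at 57.1 FPKM, had -0.09 in DCM compared to CK, -0.19 in SPM compared to DCM and -0.28 in SPM compared to CK. In the same order Mapk8 (JNK1) had -0.34, 0.42 and 0.07 and Mapk14 (p38 alpha) -0.06, 0.02 and -0.04. Past the adjusted limit, but under the fold-change limit, were Mapk8 in SPM compared to DCM (adjusted p = 0.0217, where 16.6% of all genes passed that limit) and Mapk3 in SPM compared to CK (adjusted p = 0.0149). Without SPM replicate 2 neither passed it (0.111 and 0.0777).

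Upstream, Map3k6 (ASK2), a stress-activated MAP3 kinase, was called in DCM compared to CK at 1.23 (adjusted p = 0.000315), from 19.4 ± 4.42 to 45.5 ± 6.03 normalized CPM (SD, n = 3), and in SPM compared to CK at 1.45 (adjusted p = 0.00165, or 1.46 and 0.00818 without SPM replicate 2). The 6 MAP2 kinases, 11 RAS-RAF genes and 10 MAP kinase-activated kinases tested had 0 calls in each of the 3 comparisons, and Map2k2, Grb2 and Mapkapk2 were their most abundant genes (46.0, 43.7 and 135.5 FPKM). Map3k2 was higher in SPM compared to DCM (0.63, adjusted p = 0.0152) and to CK (0.66, adjusted p = 0.0174). Leaving out SPM replicate 2 gave adjusted p-values of 0.0593 and 0.0525, and the GC correction brought the log2 fold changes to 0.28 and 0.35 without a call. Both calls were also lost without SPM replicate 3, the one to DCM without DCM replicate 1 or 2, and the one to CK without CK replicate 1. Map3k20 was the most abundant MAP3 kinase at 27.5 FPKM.

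Transcripts that answer to ERK were mixed. Etv5, an ETS transcription factor induced by ERK, was higher in DCM than in CK (0.73, adjusted p = 7.75e-05), from 49.1 ± 2.34 to 81.2 ± 2.30 normalized CPM (SD, n = 3), and it was called without any one of the 6 libraries. It was the 1 call among 10 ERK output genes in DCM, and Fosl1 was lower in SPM than in CK (-0.63, adjusted p = 0.0319, or 0.133 without SPM replicate 2, and lost too without SPM replicate 3 or CK replicate 1 or 3 and after the GC correction, at 0.0908). Of the 8 feedback inhibitors of RAS and ERK tested, 0 were called in DCM, and Spred1 was higher in SPM compared to DCM (0.60, adjusted p = 0.0114). That call was lost without SPM replicate 2 (adjusted p = 0.0546), SPM replicate 3 or DCM replicate 2, and after the GC correction. Ptpn7, a phosphatase of ERK and p38 in blood cells, was lower in SPM than in CK (-0.82, adjusted p = 0.0420, or 0.158 without SPM replicate 2), a call kept when CK replicate 3 was left out and lost without any other library and after the GC correction (0.0556). Errfi1 and Ier3 were the most abundant genes of the feedback and output lists (23.4 and 18.8 FPKM).

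**Figure D4:**
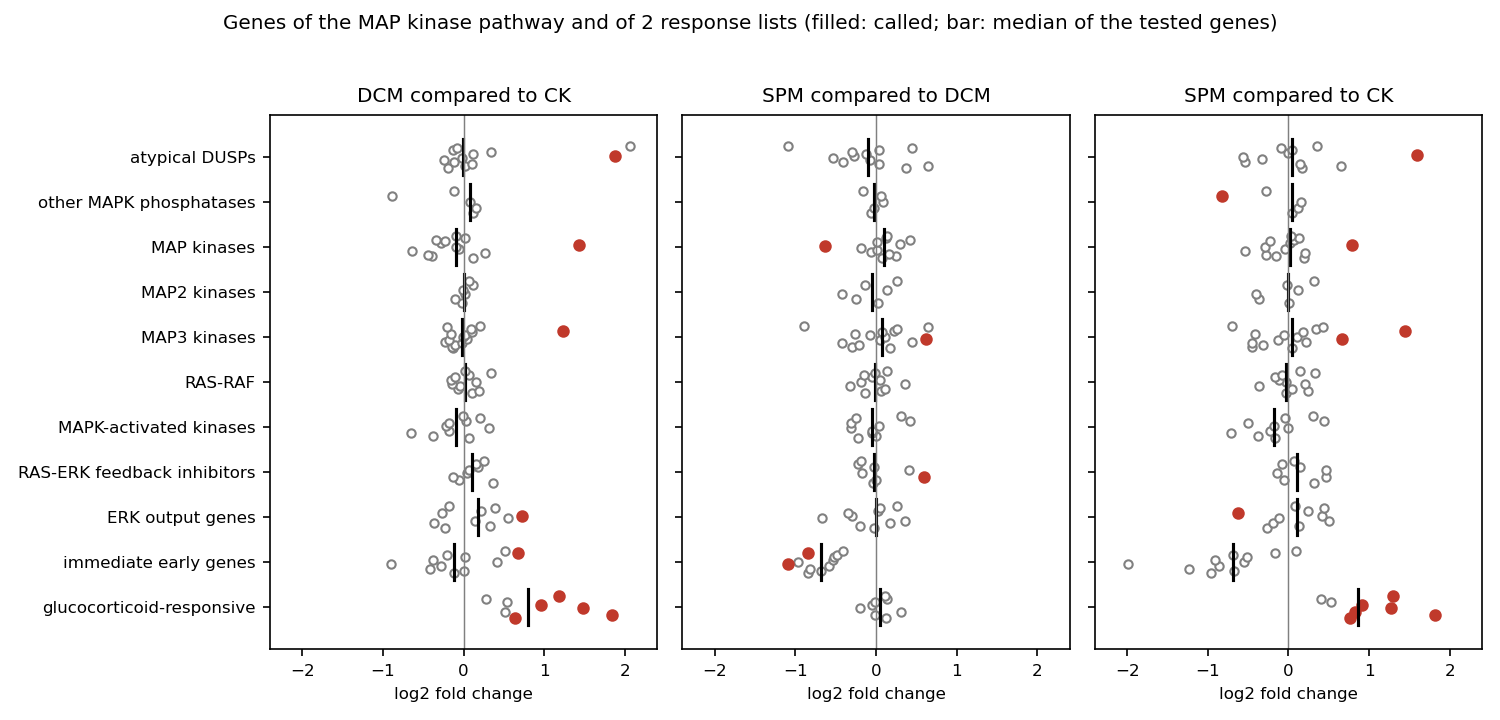
Log2 fold changes (horizontal axis) of the tested genes of 11 lists, 1 row per list, in the 3 comparisons, with filled points for called genes and a bar for the median of the tested genes of a list. Filled points number 10 higher and 0 lower in DCM compared to CK, 2 and 3 in SPM compared to DCM and 10 and 2 in SPM compared to CK, and all 11 immediate early genes lie below 0 in SPM compared to DCM.

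Immediate early genes, which are switched on within minutes of a stimulus and to which Dusp1 belongs, were set beside it. Compared to DCM, all 11 genes tested had in SPM a negative log2 fold change, with a median of -0.68 beside 0.0057 for all genes, and 2 were called, Fos (-1.09, adjusted p = 0.0351) and Nr4a1 (-0.84, adjusted p = 0.0254). DESeq2 called 1 of the 11. Without SPM replicate 2 the median was -0.69 and 0 were called (adjusted p of 0.0959 for Fos and 0.0748 for Nr4a1). After the GC correction 0 were called as well (adjusted p of 0.0756 and 0.0773). Without DCM replicate 1, 2 or 3 the calls numbered 0, 0 and 1, and without SPM replicate 3 they numbered 9 with a median of -1.07. Against CK 0 were called in SPM, with 1 called lower without CK replicate 2, 4 without CK replicate 3 and 4 without SPM replicate 3. In DCM compared to CK the median of the list was -0.11 and depended on the CK library left out. It was 0.34 with 3 called higher without CK replicate 1, and -0.24 with 1 called lower without CK replicate 3. Nr4a1, the most abundant of the list at 49.0 FPKM, was also higher in DCM than in CK (0.68, adjusted p = 0.0439), a call lost without CK replicate 3, without any DCM replicate and by DESeq2.

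Within SPM and CK, but not within DCM, Dusp1 and the immediate early genes fell in a similar order. Egr1, which encodes a zinc finger transcription factor, had 192, 58.1 and 31.6 normalized CPM in CK replicates 1, 2 and 3 and 18.4, 41.2 and 60.1 in SPM. All 11 genes were lowest in SPM replicate 1 and highest in SPM replicate 3, as were Dusp1, Dusp5, Dusp6, Dusp8 and Dusp10. In CK 10 of the 11 were lowest in replicate 3, as were Dusp1, Dusp5 and Dusp6, and 8 were highest in replicate 1, as was Dusp1. Dusp8 was instead highest in CK replicate 3, and Dusp10 was lowest in CK replicate 1. In DCM 7 of the 11 were highest in replicate 1, where Dusp1 was lowest, and the other 4 were highest in replicate 2, as was Dusp1. SPM replicate 2 lay between the others for 66.3% of all genes, so its middle place is not particular to these genes. The share of all genes that were lowest in SPM replicate 1 and highest in SPM replicate 3 was not counted. The highest SPM library of Dusp1 exceeded the lowest 1.82-fold, and the highest CK library the lowest 2.12-fold. Dusp4 went the other way in SPM, highest in replicate 1 and lowest in replicate 3.

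The genes with levels most like those of Dusp4 over the 9 libraries were Fam107a, Hif3a, Tcap, Jade2 and Fig4, with Pearson's r of log2 normalized CPM of 0.992, 0.992, 0.990, 0.989 and 0.989 among 14908 genes. The points share the 3 groups and the TMM scaling, and no test is given. Fam107a, a stress-responsive actin-binding protein gene, had 9.74 ± 1.69, 34.4 ± 6.03 and 38.5 ± 8.57 normalized CPM in CK, DCM and SPM (SD, n = 3). Hif3a, a hypoxia-inducible factor subunit, had 2.66 ± 0.802, 9.77 ± 1.22 and 11.9 ± 2.23. Tcap, the titin cap protein of the sarcomere, had 1191 ± 98.5, 1838 ± 36.4 and 1792 ± 72.7. Jade2, a ubiquitin ligase of chromatin, had 38.7 ± 5.31, 71.0 ± 3.68 and 79.1 ± 2.78, and Fig4, a phosphoinositide phosphatase, had 53.6 ± 2.82, 78.0 ± 3.42 and 81.8 ± 7.47. Because the 5 were picked for likeness to Dusp4, which was lowest in CK, their own lowest means in CK follow from that choice. The other tested family members had r between -0.58 and -0.16 with Dusp4.

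Genes known to answer to glucocorticoids, the steroid hormones of the adrenal cortex, were described beside Dusp4 as a list. In DCM compared to CK 5 of 8 were called higher, Fkbp5 (1.84, adjusted p = 2.52e-05), Mt2 (1.48, adjusted p = 0.0144), Zbtb16 (1.18, adjusted p = 0.00102), Per1 (0.97, adjusted p = 0.00953) and Cebpd (0.64, adjusted p = 0.00290), and all 8 had a positive sign, with a median of 0.80 beside -0.0025 for all genes. The calls of Mt2, Per1 and Cebpd were lost without DCM replicate 1, DCM replicate 2 and CK replicate 1, respectively. Between SPM and DCM 0 of 8 were called by edgeR and 0 by DESeq2 (median 0.05). Compared to CK, 6 of 8 were called higher in SPM, Klf9 (0.82, adjusted p = 0.00503) and the 5 named, or 4 without SPM replicate 2, where Mt2 and Per1 had adjusted p-values of 0.0807 and 0.0539. Fkbp5, a chaperone that limits the glucocorticoid receptor, had 33.7, 26.0 and 40.4 normalized CPM in CK, 93.0, 133.6 and 130.4 in DCM and 147.9, 114 and 92.2 in SPM. Its r to Dusp4 was 0.987, the highest of the list, and the other genes of the list had r between 0.773 and 0.932. Sgk1, the most abundant gene of the list at 54.1 FPKM, was not called in any comparison, with 0.54 in DCM compared to CK (adjusted p = 0.0169). The list was chosen with the values of these libraries known, so its counts are a description.

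**Figure D5:**
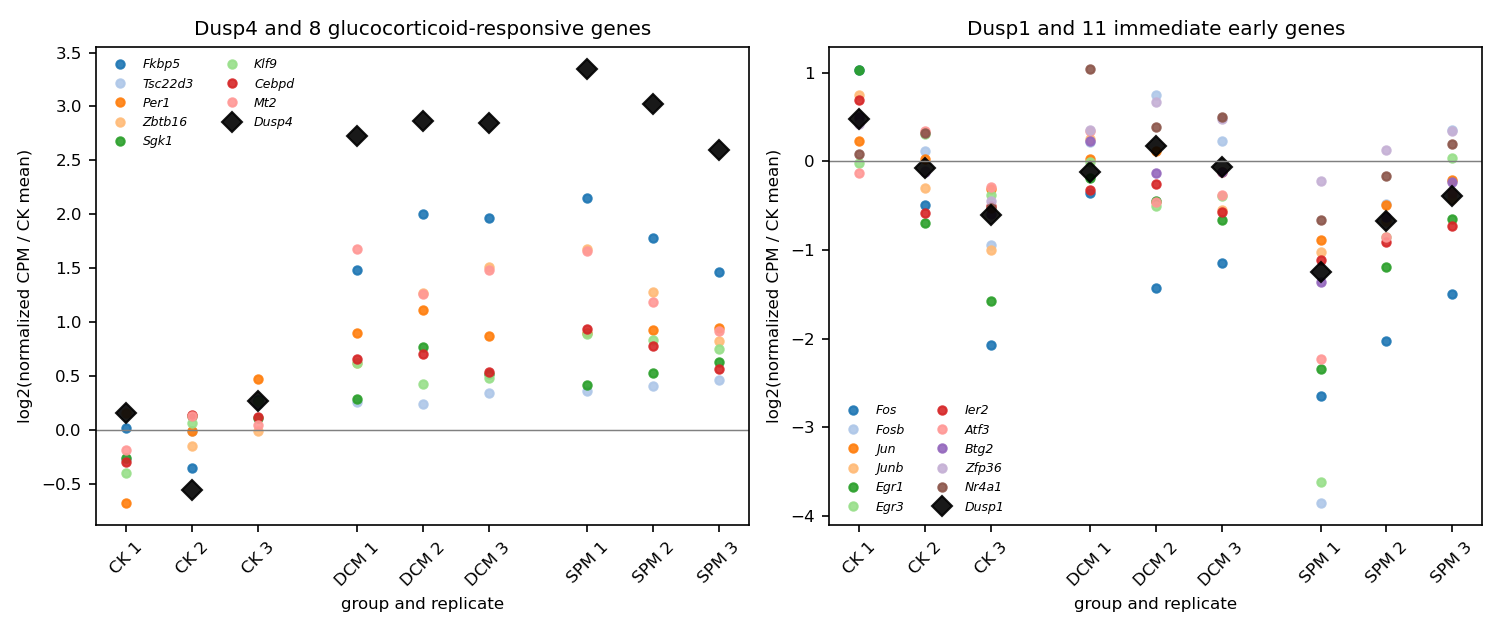
Log2 of normalized CPM over the CK mean (vertical axis) in each of the 9 libraries, with Dusp4 (black diamonds) and 8 glucocorticoid-responsive genes on the left and Dusp1 (black diamonds) and 11 immediate early genes on the right. On the left Dusp4 and all 8 genes lie above 0 in all DCM and SPM libraries, and on the right all 11 genes are lowest in SPM replicate 1 among the SPM libraries.

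Other genes overlap some members in GENCODE M21, and the strand setting of the counting is not known. The annotated span of Dusp1 overlaps Ergic1 on the opposite strand over 640 bases, and Ergic1 had 40.9 to 53.6 normalized CPM. Gm8225, within the span of Dusp1, reached 0.0965 at most. Gm32786 overlaps Dusp8 over 86 bases and had 0.0279 to 0.322. Antisense genes over Dusp5, Dusp10 and Dusp16 and a pair of genes on the strand of Dusp1 were not analysed here. Because the strand setting is not known, reads of the 2 strands cannot be told apart for the members with an antisense gene. No gene overlapped Dusp2, Dusp4, Dusp6, Dusp7 or Dusp9.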

How the data were processed

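RNA of heart myocardium was sequenced in 9 libraries, 3 each of CK, DCM and SPM, grouped by their deposited labels. The authors deposited counts, whole numbers of reads per gene and library, from reads filtered with fastp 0.18.0. The submitters' processing notes name Bowtie 0.12.2, mm8 and mm9 without a role, and for these counts the aligner, the counting tool and the strand setting are not given in the sources used. The deposited FPKM values equal the count over a fixed gene length and the total of the library (largest relative deviation 6.84e-13). Symbols and coordinates come from GENCODE M21 (GRCm38) by Ensembl identifier, 22820 of 22851 matched, and are not positions in the authors' files. Promoter windows come from RefSeq (GRCm38.p6).

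Groups were compared in pairs with edgeR 4.0.16 in R 4.3.3 (filterByExpr, TMM, glmQLFit, glmQLFTest) on the deposited counts, with limits of 0.05 for the Benjamini-Hochberg adjusted p over all genes tested and 1.5 for the fold change. Both limits are those of the study's methods, which used DESeq2. The standard error is the log2 fold change divided by the square root of F. A group's SD is over its 3 libraries. The steps were tested on simulated data. Alternatives were DESeq2 1.42.0, RLE factors, testing without the low-count filter or with a minimum of 1 CPM in 3 libraries, a fold change of 1.3 or none, a joint fit of the 9 libraries, a block for the replicate number, a GC offset (lowess span 0.3) and fits that drop 1 library. For the pathway lists, dropping libraries, the GC offset and DESeq2 were chosen after seeing the data. Likeness to Dusp4 used log2 normalized CPM with a prior count of 2 over genes past the filter in all 9 libraries.

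The members and the lists were chosen with earlier results of these data known. Named genes are the 10 members, the most abundant and the called genes of each pathway list and the 5 genes most like Dusp4. Mapk8, Mapk14 and Egr1 were named after their values were seen. The values of 1 other gene of the lists are not reported here. The list genes Dusp19, Dusp21, Spry3 and Egr2 were not analysed here.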

Additional observations from a re-analysis of the deposited data

How the results depend on the processing

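Dusp4 is given without a test, so its place in a number of members below is no result and no sign of stability. Beside it, 0 members were called in DCM compared to CK in the 9 other settings and the 6 fits without a library. In SPM compared to DCM the number was 1, Dusp1, and became 0 with all 9 libraries in one fit and 0 after the GC correction, and it lay between 0 and 2 over the libraries left out, where the 2 without SPM replicate 3 were Dusp1 and Dusp5. In SPM compared to CK the number with Dusp4 counted was 1, so 0 beside it. It became 2 without a fold-change limit and 2 at a fold change of 1.3 through Dusp8, and 2 without the low-count filter and 2 with all 9 libraries in one fit through Dusp1, and it lay between 1 and 2 over the libraries left out. The causes were not tested. Calls over all genes went from 625 to 1497 in DCM compared to CK without a fold-change limit and 1100 at a fold change of 1.3. For SPM compared to DCM they went from 521 to 2410 without that limit, 1299 at 1.3, 134 after the GC correction, 56 without SPM replicate 2, 280 and 73 without DCM replicates 1 and 2 and 791 without SPM replicate 3. For SPM compared to CK they went from 1342 to 3989 without the limit, 2532 at a fold change of 1.3 and 771 without SPM replicate 2.

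Signs reversed for members near 0. Dusp2 in SPM compared to DCM stood at -0.00089 with RLE factors and at -0.0015 without the filter. In SPM compared to CK after the GC correction Dusp2 was 0.11 and Dusp7 0.0040. With single libraries left out, log2 fold changes that crossed 0 ranged in DCM compared to CK from -0.091 to 0.13 for Dusp6, -0.22 to 0.32 for Dusp1, -0.89 to 0.29 for Dusp2, -0.25 to 0.00016 for Dusp8 and -0.21 to 0.0037 for Dusp10, in SPM compared to DCM from -0.35 to 0.82 for Dusp2, and in SPM compared to CK from -0.23 to 0.0044 for Dusp6. Of 186 values of single members under the settings that kept all libraries, 178 kept their direction and their side of the limits. In the fits that dropped a library 139 of 162 did, and 15 reversed their direction. Both numbers include the values of Dusp4, which are no sign of stability.

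The replicate numbers did not pair the libraries, since residuals of libraries of the same number correlated between -0.0746 and 0.205 and those of other numbers between -0.284 and 0.217. With the replicate number as a block the members called beside Dusp4 numbered 0, 1 and 0, and Dusp1 in SPM compared to DCM had a log2 fold change of -0.77 (adjusted p = 0.00283 by edgeR). With 3 libraries a group and Dusp2 and Dusp9 at few counts, small differences of these members were not detectable at this depth.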
